A study of Mus musculus with 3 samples.

Results

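FOG2 peaks near gene ends in E12.5 mouse heart ventricles are described here. A peak was included when its summit, the base of highest pulldown signal, lay within 5 kb of the start or the end of any RefSeq protein-coding gene of mm10, inside or outside the gene body. Only the 19 autosomes were used. The rule kept 664 of 6067 autosomal peaks (10.9%, 95% Wilson interval 10.2 to 11.8%), out of 6166 peaks in all. The other 5403 autosomal peaks comprised 2415 inside gene bodies and 2988 outside them, all over 5 kb from any such end. No fold or p-value entered the rule.

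Chromatin was prepared from ventricles of embryos at E12.5, counted in days of gestation, with about 20 ventricles in each replicate. By the growth and extraction protocol the embryos were Fog2 flbio/flbio;Rosa26 BirA/BirA: both copies of Fog2 carried a tag that the bacterial ligase BirA, made from the Rosa26 locus, biotinylates. The sample fields instead give the genotype as WT and the antibody as FOG2 for the pulldowns and none for the input, and the peak list itself is named for FLAG, so the labels disagree with one another and the protocol is followed here. Tissue was fixed in 1% formaldehyde for 10 min, and 2 FOG2 pulldown libraries, enriched on streptavidin by that protocol, were set against 1 input library. All the libraries are described by the same protocol, and no pulldown without tagged FOG2 was analysed here. Each pool of ventricles mixed all ventricular cell types, which the peak list cannot separate, and the list holds no expression values by which the tissue could be checked. The authors pooled the pulldown replicates into a single peak list, so no value below has a spread between replicates and no test between groups was possible. Every interval given is a 95% interval that covers counting error only, and sequenced fragments copied by PCR are not independent molecules.

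FOG2, encoded by Zfpm2, is a multi-zinc-finger cofactor without a known DNA sequence preference of its own. It reaches chromatin through GATA factors, GATA4 above all in the heart, and can recruit the NuRD deacetylase complex. FOG2 is required for the growth of the ventricular wall and for the coronary vessels. GATA factors bind AGATAA and close relatives, at promoters and at distal enhancers.

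The promoters of 5 genes that held a FOG2 summit are printed first, as examples of the sequence such summits sat beside in 4 muscle or heart genes and a growth regulator. They were chosen after their values were seen and are not the strongest, and AGATAA is in 4 of these 5 windows, against 9 of all 38 promoter windows with a summit. Each line is the RefSeq GRCm38.p6 sequence of the 250 bases before a start site, 5′ to 3′ on the gene's own strand, and positions count back from the start. Capitals mark matches, on either strand, to the letters searched: AGATAA for GATA factors, GGTGTGA for T-box factors, GGAATG for TEAD factors, AAGTG for the factor NKX2-5, and GGGCGG for the GC box, besides the CArG and MEF2 boxes. Lrrc10, at chr10:117045091-117045340 on the plus strand, encodes a heart-restricted leucine-rich repeat protein. Its summit lay at -108, with AGATAA at -173.
Lrrc10: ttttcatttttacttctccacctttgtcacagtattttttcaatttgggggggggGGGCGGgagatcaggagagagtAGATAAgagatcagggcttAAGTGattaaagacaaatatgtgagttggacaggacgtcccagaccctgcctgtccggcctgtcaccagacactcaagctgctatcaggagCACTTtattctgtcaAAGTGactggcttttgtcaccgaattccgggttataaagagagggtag
Tecrl, at chr5:83355196-83355445 on the minus strand, encodes a reductase-like protein of the endoplasmic reticulum that is linked in humans to inherited ventricular arrhythmia. Its summit lay at -6, with AGATAA at -121, -80 and -55.
Tecrl: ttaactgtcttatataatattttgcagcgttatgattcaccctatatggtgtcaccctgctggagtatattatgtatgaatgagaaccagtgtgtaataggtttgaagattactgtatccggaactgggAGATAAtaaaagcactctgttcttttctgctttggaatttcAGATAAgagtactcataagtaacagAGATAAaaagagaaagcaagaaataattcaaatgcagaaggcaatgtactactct
Slc8a1, at chr17:81738388-81738637 on the minus strand, encodes the sodium-calcium exchanger NCX1. Its summit lay at -108, with AGATAA at -68.
Slc8a1: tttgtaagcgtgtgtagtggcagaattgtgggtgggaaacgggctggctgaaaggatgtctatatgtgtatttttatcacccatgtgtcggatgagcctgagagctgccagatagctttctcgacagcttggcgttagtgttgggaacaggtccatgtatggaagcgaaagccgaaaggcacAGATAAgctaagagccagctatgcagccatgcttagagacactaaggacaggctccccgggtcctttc
Mlip, at chr9:77347857-77348106 on the minus strand, encodes a muscle-enriched lamin-interacting protein. The start used was internal to the gene, the summit lay 46 bases after it, and the GATA letters stood on the opposite strand (TTATCT) at -150 and -6, with GGAATG at -19.
Mlip: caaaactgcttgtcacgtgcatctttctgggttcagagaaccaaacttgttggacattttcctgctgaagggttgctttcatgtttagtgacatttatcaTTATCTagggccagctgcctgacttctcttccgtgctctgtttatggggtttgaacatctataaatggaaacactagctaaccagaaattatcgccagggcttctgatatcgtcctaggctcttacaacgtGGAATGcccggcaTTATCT
Yap1, at chr9:8004597-8004846 on the minus strand, encodes the Hippo pathway coactivator that works through TEAD factors. Its summit lay 12 bases after the start, with GGAATG at -141, GGGCGG at -82 and -26, and no AGATAA in this window.
Yap1: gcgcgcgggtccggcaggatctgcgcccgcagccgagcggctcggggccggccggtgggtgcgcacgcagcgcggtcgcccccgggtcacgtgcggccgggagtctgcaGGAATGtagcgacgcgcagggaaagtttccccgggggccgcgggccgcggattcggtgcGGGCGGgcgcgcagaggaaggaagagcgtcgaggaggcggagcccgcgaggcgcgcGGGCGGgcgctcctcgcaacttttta

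These promoters differed in strength. Fold, as the authors' peak caller wrote it for each summit, divides the pulldown signal by the control signal. It was 22.5 at the Lrrc10 promoter, from 36 pulldown fragments recovered from the fold and its p-value. It was 20.9 at Yap1 (37 fragments), 9.78 at Tecrl (27 fragments), 8.03 at Slc8a1 and 7.79 at Mlip (21 fragments). The 5 summits thus ranged from near the ordinary strength of the 664 peaks to well above it.

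Over all 20085 RefSeq windows of 250 bases before to 50 bases after a start, from 16457 autosomal genes, 37 of the 664 peaks had their summit in one, in 38 windows of 37 genes. AGATAA or its complement occurred in 9 of the 38 windows (23.7%, 13.0 to 39.2%) and in 9.57% of all windows of that length. The interval lies above the share of all windows, but only 9 windows carry it. TEAD letters were present in 7 windows (18.4%) and in 13.4% of all windows. NKX letters were present in 19 of the 38 and in 45.0% of all, and the GC box in 21 (55.3%) and in 47.0%. The T-box letters occurred in 2 windows (5.26%) and in 3.67% of all, the MEF2 box in 1 (2.63%) and in 2.62%, and the CArG box in 0 of 38 and in 1.43%. The 38 windows had a median GC content of 58.5%, and all windows 57%. A match is a description of the letters and not a bound site.

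Peaks near gene ends had medians close to those of other peaks, and a larger share of very strong ones. The median fold was 6.37 (6.25 to 6.69) near ends, with quartiles of 5.31 and 8.22 and a range of 3.04 to 75.3. It was 6.38 (6.32 to 6.54) for peaks deeper in gene bodies and 6.56 (6.38 to 6.77) for peaks farther outside them. At least 10-fold enrichment was reached by 110 of the 664 (16.6%, 13.9 to 19.6%) and by 909 of the other 5403, against 16.8% of all autosomal peaks. At least 20-fold was reached by 31 of the 664 (4.67%, 3.31 to 6.55%), by 61 of those deeper in gene bodies (2.53%, 1.97 to 3.23%) and by 85 of those farther outside (2.84%, 2.31 to 3.50%), against 2.92% of all autosomal peaks. The interval near gene ends lies just above that of the other peaks together (2.70%, 2.302 to 3.17%). Both Larp7 peaks were among the 31, and without them the share was 29 of 662 (4.38%, 3.07 to 6.22%), whose interval overlaps that of the others. Neighbouring peaks of 1 gene are not independent of each other.

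**Figure D1:**
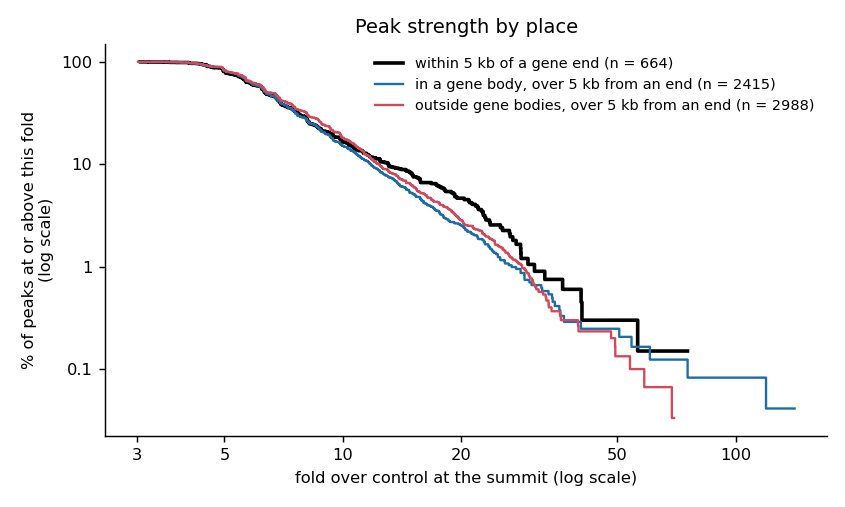
Percent of peaks (log scale) at or above each fold over control (log scale) for peaks within 5 kb of a gene end (black, n = 664), peaks deeper in gene bodies (blue, n = 2415) and peaks farther outside them (red, n = 2988). The curves run together to about 10-fold, the black one is highest at 20-fold, where it stands at 4.67%, and the highest folds of all are on the blue curve.

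The reads behind a typical peak were few. The median peak near a gene end rested on 12 fragments at its summit (Poisson interval 6.20 to 21.0), with quartiles of 9 and 17 and a range of 5 to 166, and 249 peaks (37.5%) rested on 10 or fewer. The control level, in fragments on the pulldown scale, had a median of 0.869 near ends and 0.828 at the other peaks. It exceeded 3 times the background of 0.588 at 96 of the 664 (14.5%) and at 691 of the 5403 others (12.8%). The median width near ends was 245 bp, and 64 peaks (9.64%) were at least 500 bp wide, against 510 (9.44%) elsewhere. Another summit lay within 10 kb of 118 of the 664 (17.8%) and of 1009 of the others (18.7%).

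Set against the sequence available, gene ends held fewer summits than gene interiors taken as a whole, but not than the interior next to them. The territory within 5 kb of an end covers 308 Mb, or 12.6% of the 2441 Mb between the first and last annotated genes of the autosomes, and held 2.15 summits per Mb (1.99 to 2.32). The remainder of gene bodies held 2.96 per Mb (2.85 to 3.08) over 815 Mb, and sequence farther outside held 2.27 (2.19 to 2.35) over 1318 Mb. The density near ends was 0.727 times that of gene bodies (0.666 to 0.792), 0.950 times that of the farther outside (0.872 to 1.03) and 0.850 times that of all the rest (0.783 to 0.922). The last ratio turned to 1.03 when the distance was cut to 1 kb and to 1.02 when genes of any biotype were used. Assembly gaps and unmappable sequence were not removed from these lengths, and their part in the ratios was not tested.

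**Figure D2:**
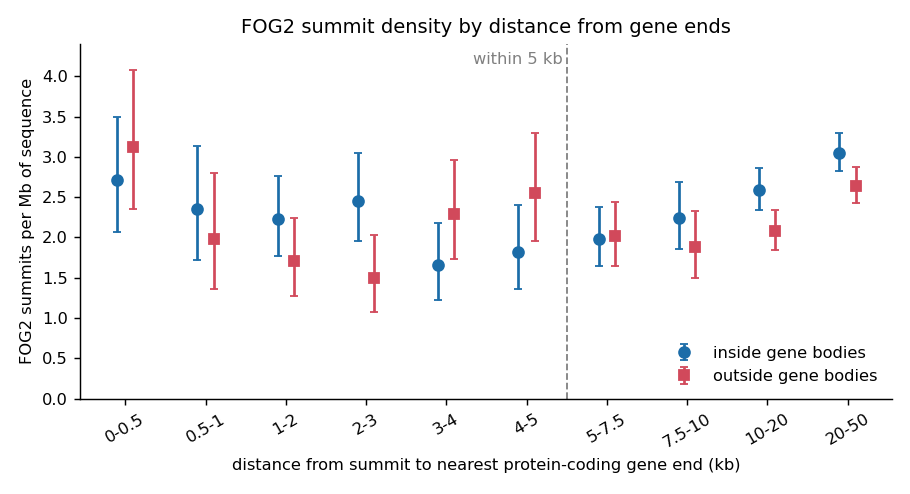
FOG2 summits per Mb (points, with exact 95% Poisson intervals) by distance to the nearest protein-coding gene end, inside gene bodies (blue circles) and outside them (red squares). The first 500 bp hold 2.71 per Mb inside and 3.13 outside, the outside level is 1.495 at 2 to 3 kb, and both lines are higher again at 20 to 50 kb.

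The 664 summits were spread across the whole distance. In the first 500 bp there were 113, then 78 at 500 to 1000 bp, 132 at 1 to 2 kb, 122 at 2 to 3 kb, 108 at 3 to 4 kb and 111 at 4 to 5 kb, with a median distance of 2070 bp. Their density was 2.71 per Mb (2.06 to 3.49) in the first 500 bp inside genes and 3.13 (2.35 to 4.08) in the first 500 bp outside. It was 1.495 (1.07 to 2.03) at 2 to 3 kb outside. The median fold was 5.98 (5.66 to 6.55) in the first 500 bp, 6.39 at 500 to 1000 bp, 6.63 (6.22 to 6.96) at 1 to 2 kb, 6.77 (5.94 to 7.67) at 2 to 3 kb, 6.35 at 3 to 4 kb and 6.32 (5.86 to 6.96) at 4 to 5 kb, with overlapping intervals. Summits inside a body numbered 368 (55.4%), with a median fold of 6.30 (6.13 to 6.42), and the 296 outside (44.6%) had a median of 6.75 (6.30 to 6.96). At the edge of the rule, the members just inside were at Svep1 (4957 bp, 22.0-fold), Mlip (4972 bp, 7.79-fold) and Bmp7 (4973 bp, 21.8-fold). Peaks just outside were at Skor1 (5022 bp, 6.08-fold) and Gin1 (5024 bp, 13.5-fold).

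**Figure D3:**
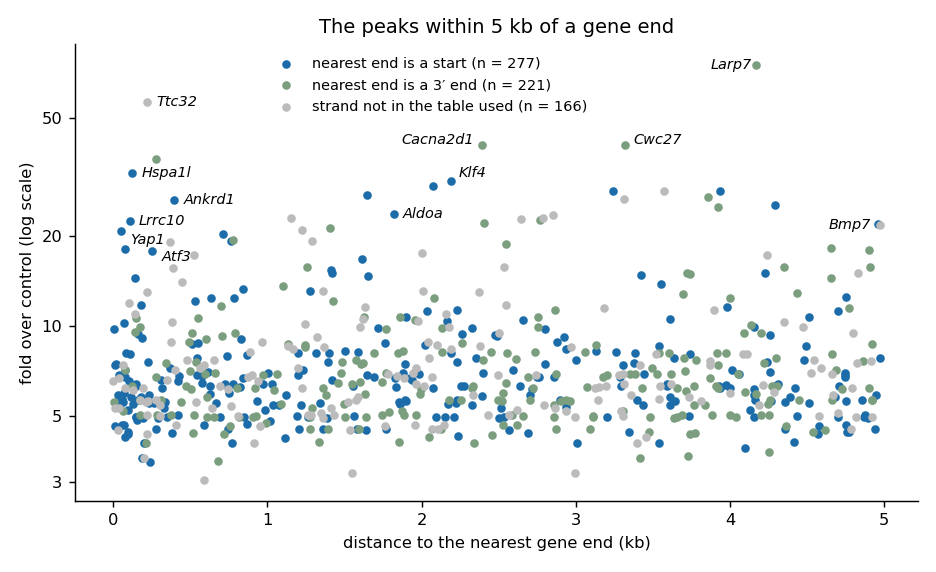
Each point is 1 of the 664 peaks, by distance to its nearest gene end (kb) and fold over control (log scale), coloured by whether that end is a start (277), a 3′ end (221) or of unread strand (166). The strongest peak, at Larp7, lies at 4169 bp and the next, at Ttc32, at 219 bp, and the label of a gene with several peaks marks its strongest.

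More summits were nearest to a start than to a 3′ end. Strand was read from the RefSeq promoter table for 16457 of 20665 genes (79.6%). The nearest end was a start for 277 peaks and a 3′ end for 221, a ratio of 1.25 (1.05 to 1.503), and 166 peaks were nearest to a gene of unread strand. The ratio was 1.245 (0.993 to 1.56) when −log10 q was required to reach 5 and 1.213 (0.9905 to 1.49) for peaks of at least 5-fold, and both of these intervals include 1. Within 500 bp the counts were 63 for starts and 19 for 3′ ends, with 31 unread. With each summit counted once, at its nearest start of known strand, the 500 bp upstream held 37 summits, 2.25 per 1000 genes (1.58 to 3.10), and the 500 bp downstream held 27, or 1.64 (1.08 to 2.39). The other 500 bp steps around the start held between 0.486 and 1.28 per 1000 genes. The steps around the 3′ end, counted in the same way, held between 0.425 and 1.34. The lowest of these was the last 500 bp of the gene, with 7 summits (0.171 to 0.876). The median fold was 6.32 for peaks nearest a start and 6.30 for peaks nearest a 3′ end. Among the 31 peaks of at least 20-fold, 13 were nearest a start, 9 a 3′ end and 9 an end of unread strand, and 22 lay outside their nearest gene.

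**Figure D4:**
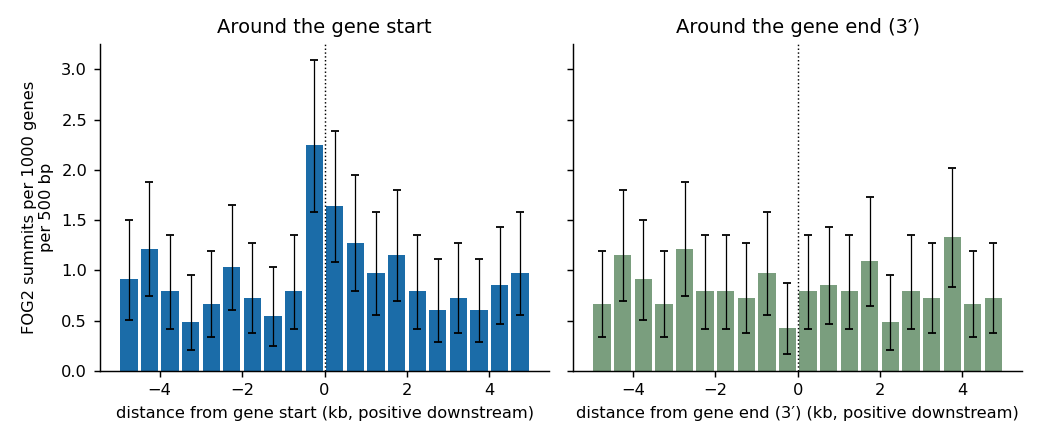
FOG2 summits per 1000 genes in steps of 500 bp around gene starts (left) and 3′ ends (right), over the genes whose strand was read, each summit counted once per panel at its nearest such end, with exact 95% Poisson intervals. The tallest bar, 2.25, is the step just upstream of the start, and no step around the 3′ end exceeds 1.34.

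Across autosomes, the share of peaks near gene ends was lowest on chr1, at 32 of 479 peaks (6.68%), where 9.94% of the span is within 5 kb of an end, and highest on chr7, at 51 of 264 (19.3%), where 19.1% of the span is. Members per Mb of that territory ranged from 1.61 on chr5 to 3.12 on chr13.

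In all, 685 of 20665 autosomal protein-coding genes had such a summit, which is 3.31% (3.08 to 3.57%), and this share is the background for every gene list below. Of these genes 622 had 1 summit, 52 had 2, 10 had 3 and 1 had 4. They were longer than genes at large, with a median of 25.7 kb against 17.5 kb. Most summits (578) were near the ends of 1 gene, 77 near 2 genes, 8 near 3 and 1 near 4, so a gene name here is a neighbour and not a target. Among the genes described below, summits of Tnni3, Tnnc1, Tcap, Cox6a2, Cox7a1, Mef2a and Rab2b were also near ends of other genes, besides those whose shared summit is named.

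The strongest peaks near gene ends stood at genes of general functions as well as at heart genes. Larp7, whose product binds the 7SK RNA that restrains transcription elongation, had the highest fold, 75.3 (166 fragments, 142 to 193), at 4169 bp inside its 3′ end in a peak spanning chr3:127540424-127541077. A second Larp7 peak reached 36.3-fold with 69 fragments, 281 bp from that end. Ttc32, a gene for a tetratricopeptide repeat protein, had 56.3-fold enrichment (158 fragments) 219 bp outside an end, at chr12:9029546-9030146, and the same summit lay 930 bp past the 3′ end of Wdr35, which encodes a protein of intraflagellar transport. Cacna2d1, the auxiliary alpha2-delta subunit of voltage-gated calcium channels, had 3 peaks of 40.6, 15.1 and 5.15-fold, the first 2392 bp past the 3′ end at chr5:16376457-16377068. Cwc27, a spliceosome-associated cyclophilin, also had 3, of 40.4, 6.37 and 4.08-fold. The summit 123 bp upstream of Hspa1l reached 32.7-fold with 131 fragments and lay 424 bp from the start of Hspa1a. Both encode heat shock proteins of the Hsp70 family, and the control level there, 3.04, was well above background. Hspa1a has a near-identical neighbouring copy, so the alignment of reads to it is uncertain.

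The zinc finger factor Klf4 had 3 summits, of 30.7, 13.6 and 12.4-fold (52, 21 and 19 fragments), all within its body, the strongest at chr4:55529653-55531032. Further peaks of at least 20-fold stood at Olfr769, an olfactory receptor gene (29.6), at the kinase gene Prkch (28.4), at Mdfic (28.4), at the aldo-keto reductase gene Akr1c13 (28.3) and at the glycolytic enzyme gene Aldoa (23.7). The widest peak, 5602 bp at 27.6-fold, spanned chr6:113071623-113077224. It lay outside Setd5, which encodes a SET-domain chromatin protein, with its summit 1649 bp upstream of that gene's start. Only protein-coding genes were used to name it. Whether the engineered Rosa26 locus adds to the signal of this or any other peak was not tested. The largest number of summits at 1 gene was 4, at the class I histocompatibility gene H2-K1 (14.5, 7.56, 6.93 and 6.84-fold), which belongs to a family of closely related copies where reads may be split. Josd2, Adamts6, Zdhhc13 and Ripor2 had 3 each. The gene Mylk3, encoding a cardiac myosin light chain kinase, shows what the rule leaves out: a 25.1-fold summit with 70 fragments lay 42 bp before a listed internal start, yet 5257 bp from the outermost end. In all, 9 promoter windows held summits of peaks that the rule did not keep for this reason.

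Genes of the contractile apparatus had the largest share among the 21 lists counted, which were chosen with earlier results of these data known. Of 36 sarcomere genes, 16 (44.4%, 29.5 to 60.4%) had a summit near an end, against 3.31% of all genes. Ankrd1, a mechanosensitive protein of the titin region that also serves as a stress marker, was the strongest. Its peak 397 bp upstream of the start, at chr19:36119606-36121176, reached 26.5-fold with 74 fragments (58.1 to 92.9), and a second peak 175 bp past the 3′ end reached 5.67-fold with 8. Cryab, a small heat shock protein of the Z-disc, had 11.6-fold 2650 bp inside an end, and the same summit lay 1632 bp from an end of its neighbour Hspb2, another small heat shock protein gene. Among thick-filament genes, the ventricular light chain genes Myl3 and Myl2 had 9.37-fold at 159 bp and 6.70-fold at 1926 bp inside the start. The myosin heavy chain genes lie next to each other. The Myh6 summit, 4.51-fold and 1203 bp inside the outermost start and 207 bp upstream of a listed internal start, is also the one 3870 bp past the Myh7 3′ end, and Myh7 had another, 2500 bp upstream of its start, at 4.91-fold.

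Thin-filament genes were of middle strength. Tnni3 had 8.71 and 5.31-fold, Actc1 7.57-fold 1396 bp upstream of the start, Tnnc1 7.53-fold and Tnnt2 7.11-fold only 78 bp inside the 3′ end. The Z-disc genes Csrp3, Actn2, Tcap and Ldb3 had strongest folds of 6.72, 6.77, 5.67 and 4.66. The Csrp3 summits of 6.72 and 4.72-fold, of 3 in all, are also those counted at its neighbour Zdhhc13. Over the 16 genes the median of each gene's highest fold was 6.94, against 6.42 over all 685 genes.

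Calcium handling and energy metabolism genes came next to the factors and stress genes in their shares. Of 18 calcium handling genes, 5 (27.8%) had a summit near an end. Pln, the inhibitor of the sarcoplasmic calcium pump, had 3 of 11.2, 7.58 and 4.25-fold, with 26, 17 and 11 fragments, the first 2 upstream of its start at 4699 and 2231 bp. The release channel gene Ryr2 had 9.30-fold 2476 bp inside its start, the exchanger Slc8a1 8.03-fold at the promoter printed above, and the L-type channel genes Cacna1c and Cacna1d 7.79 and 6.32-fold at most. Of 22 energy metabolism genes, 5 (22.7%, 10.1 to 43.4%) had one. The myoglobin gene Mb had 3 (9.56, 8.80 and 5.90-fold), the muscle subunit gene Cox6a2 had 10.9 and 5.41-fold, the nuclear receptor Esrrb 8.12, the fatty acid carrier Fabp3 6.32 and the oxidase subunit Cox7a1 4.96. Of 20 ion channel and gap junction genes, 1, the potassium channel gene Kcnj5, had a summit near an end, a share whose interval (0.888 to 23.6%) includes the 3.31% of all genes and overlaps those of the calcium and energy lists.

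Of 32 cardiac transcription factor genes, 9 (28.1%, 15.6 to 45.4%) had a summit, and GATA4, FOG2's partner, was among them. The Gata4 summit was 12 bp outside a gene end, in a peak at chr14:63271434-63271820, at 5.31-fold, with 14 fragments (7.65 to 23.5). The control level at the Gata4 summit was 1.83, over 3 times the background of 0.588. Gata6, a GATA factor of heart and gut, had 7.67 and 6.54-fold, and the homeobox factor Nkx2-5 had 7.84-fold at 2352 bp upstream. Hand2, a basic helix-loop-helix factor, had 7.21-fold, and Mef2a, a MADS-box factor of muscle, 11.7 and 3.89-fold. Zfpm2 itself had a 5.19-fold summit 3294 bp inside an end with 20 fragments over a control level of 3.04, and its paralogue Zfpm1 had 6.96-fold. The homeobox factor Meis1 and the serum response factor Srf had 4.96-fold each. These 9 genes' strongest folds thus spanned 4.96 to 11.7.

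Stress response and signalling genes with a summit were few, and several of them had high folds. Of 17 stress response genes, 5 (29.4%, 13.3 to 53.1%) had a summit: Ankrd1, Klf4, Lrrc10, Atf3 and Myh7, with a median highest fold of 22.5. Atf3, a stress-induced bZIP factor, had 17.8-fold with 71 fragments 255 bp upstream of its start, in a peak 3132 bp wide at chr1:191183222-191186353, over a control level of 3.04. Ankrd1 and Myh7 are also in the sarcomere list. Of 27 heart signalling genes, 4 (14.8%, 5.92 to 32.5%) had one: the ligands Bmp7 (21.8), Tgfb2 (12.8) and Bmp10 (12.49), the last made by trabecular cardiomyocytes, and the receptor Fgfr1 (6.84). In the corepressor list, 1 of 14 genes had a summit: Mta1, a NuRD subunit, at 19.5-fold, 779 bp past its 3′ end, with 66 fragments, and shared with its neighbour Crip2.

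Among markers of other cell types in the heart, the folds lay between 4.06 and 7.66. Of 16 endocardial and endothelial genes, 1 had a summit: the ETS factor Ets1, at 7.66 and 6.25-fold. The epicardial T-box factor Tbx18 had 5.66-fold 312 bp past its 3′ end and was 1 of 12 epicardial genes. Of 12 genes of valve mesenchyme and fibroblasts, 2 (16.7%, 4.70 to 44.8%) had one: the growth factor receptor Pdgfra at 5.77-fold and the factor Twist1 at 4.94 and 4.06-fold. Among 5 smooth muscle genes there were 0, which with so few genes says little. Outside the heart, 1 of 10 skeletal muscle genes had a summit: Chrna1, a subunit of the muscle acetylcholine receptor, at 6.77-fold. Of 11 neuronal genes, 1 had one: the tubulin Tubb3, at 5.04-fold from 7 fragments. Of 20 cell cycle genes, 1 had one: Myc, at 7.70 and 5.86-fold. The intervals of the skeletal muscle (1.79 to 40.4%), neuron (1.62 to 37.7%) and cell cycle lists (0.888 to 23.6%) each include the 3.31% of all genes.

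Further promoter summits were at genes of general function. Zfp949, a zinc finger gene, had 18.2-fold with 51 fragments 80 bp upstream of its start, and Faf2, whose product works in protein degradation at the endoplasmic reticulum, had 11.7-fold 184 bp upstream. Ppp1r3c, a glycogen-targeting subunit of protein phosphatase, had 9.11-fold 190 bp upstream, and the small GTPase gene Rab2b had 8.12-fold 84 bp upstream. Whether or not that end was the nearest one, 64 peaks lay within 500 bp of a start of known strand, with a median fold of 5.80 (5.52 to 6.53), and 20 lay within 500 bp of a 3′ end, with a median of 6.05 (5.55 to 7.50). Several strong summits were near ends of more than 1 gene, such as St6galnac4 and Pip5kl1 at 14.7-fold, Lck and Fam167b at 13.1-fold, Cdh16 and Pdp2 at 13.1-fold, and Gas7 and Rcvrn at 13.1-fold.

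The 7 heart lists were sarcomere, calcium handling, transcription factor, ion channel, energy, signalling and stress genes. Together they held 169 distinct genes, of which 43 (25.4%, 19.5 to 32.5%) had a summit near an end. All lists were chosen with earlier results of these data known, so their shares and intervals describe and do not test. Of the blood, hepatocyte, neuron, skeletal muscle, cell cycle, corepressor, housekeeping and ribosomal lists together, 4 of 168 genes had one (2.38%, 0.930 to 5.96%). Ribosomal protein genes were 80 of these. The endocardial, epicardial, valve mesenchyme and smooth muscle lists were in neither group. The 43 heart genes were near 57 of the 664 peaks: 29 nearest a start, 16 nearest a 3′ end and 12 of unread strand. At least 10-fold was reached by 14 of the 57 (24.6%, 15.2 to 37.1%), an interval that includes the 16.8% of all autosomal peaks. Olfactory and vomeronasal receptor genes, lists added after values had been seen, had 13 of 1100 (1.18%) and 2 of 352 (0.568%). Ribosomal protein genes had 0 of 80, which allows a share of up to 3.75% by the limit of 3 genes in the total and up to 4.58% by the Wilson interval plotted. Housekeeping genes had 0 of 14, which allows 21.4% and 21.5% by these limits. Lists of blood and hepatocyte genes had 0 of 10 each, which allows 30% and 27.8%, so these short lists say little.

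**Figure D5:**
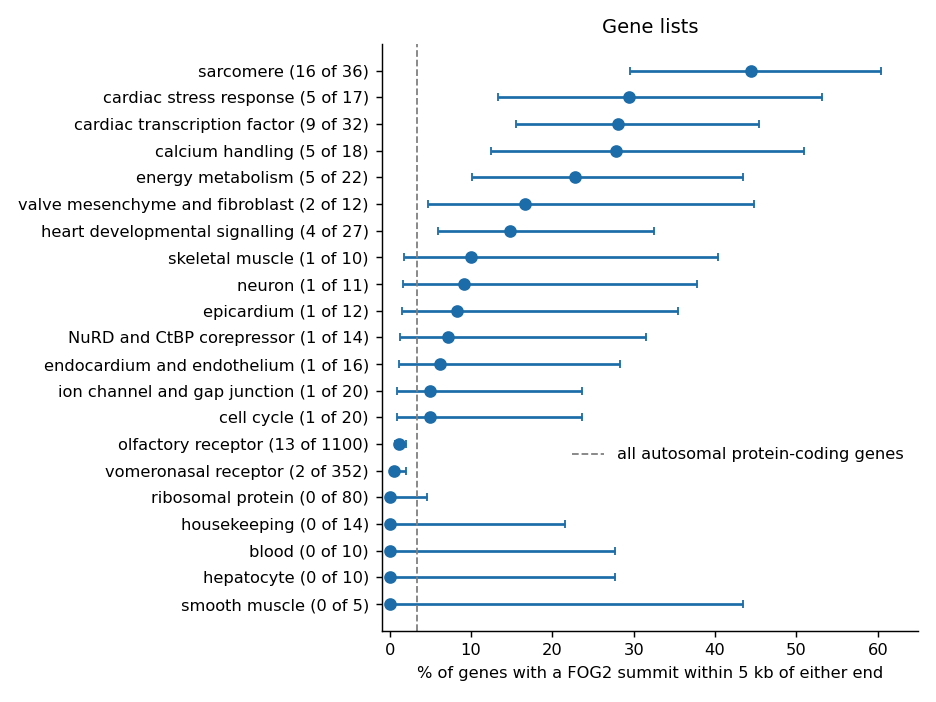
Percent of genes in each list with a FOG2 summit within 5 kb of either end (points, with 95% Wilson intervals), and the 3.31% of all autosomal protein-coding genes (dashed line). The intervals of the upper 7 lists lie above the line, those of the olfactory and vomeronasal receptors lie below it, and the others cross it. The upper lists include valve mesenchyme and fibroblast, and the ion channel and gap junction list is among those that cross.

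Several well-known heart genes had no summit within 5 kb of either end, with distances taken whether a summit lay inside or outside the gene. The nearest one lay 22.6 kb from an end of Tbx5, the T-box factor of atrium and left ventricle, and 19.0 kb from Atp2a2, the sarcoplasmic calcium pump, where it was 12.9-fold. For the natriuretic peptide genes it was the same summit, of 7.97-fold, 31.2 kb from Nppa and 16.2 kb from Nppb. For channel and junction genes it was 7.55 kb from Gja5, 12.4 kb from the pacemaker channel gene Hcn4 and 87.1 kb from Kcnd3.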

How the data were processed

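The authors deposited 1 peak list for the pooled FOG2 pulldown. The submitters' processing notes name Bowtie2 2.3.2, SAMtools 1.5, Picard, MACS2 2.1.1 and mm10, without settings. Its deposited fold is the caller's linear ratio of signals at the summit, the deposited −log10 p and −log10 q belong to the same summit, and the deposited display score, equal to the whole part of 10 times −log10 q in all 6166 peaks, was not used further.

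Pulldown fragments and control levels were solved from the fold, which adds 1 to both sides, and −log10 p. Whole fragments matched in 100% of peaks within 0.001, and the step was tested on simulated data. The depth of the libraries is unknown. Gene positions and promoter sequences came from RefSeq tables of GRCm38.p6. Wilson intervals were used for shares, Poisson intervals for counts and densities, order-statistic intervals for medians and binomial-based intervals for ratios (Python 3.11.15, scipy 1.17.1, pandas 2.3.3). The named genes were the 12 strongest peaks, up to 10 genes with 3 or more summits, up to 4 genes of highest fold per list, 12 with a promoter summit, 8 pairs sharing a summit, the peaks next to the 5 kb limit and a fixed set of heart genes. Genes named after their values were seen are Csrp3, Hspb2, Mylk3, Myh7, Tnni3, Tnnc1, Tnnt2, Actc1, Actn2, Tcap, Ldb3, Myl2, Cacna1d, Zfpm1, Meis1, Srf and Cox7a1. The peak set and the gene lists were chosen with earlier results of these data known. Alternatives were stricter peaks, other distances, other gene sets and other ways of placing a peak. X-linked genes were left out, and some genes under the naming rule are not reported here.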

Additional observations from a re-analysis of the deposited data

How the results depend on the processing

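Of 33 alternative values, 22 stayed within the range set for each result and 11 moved. These ranges were wide for some results. The gene count, 685 in the main setting, was counted as staying at 457 for −log10 q of at least 5. It was also counted so at 565 for a fold of at least 5. A distance of 1 kb gave a share of 3.15% of autosomal peaks, a density 1.03 times that of the rest, a start to 3′ end ratio of 2.09 and 195 genes. A distance of 10 kb gave 17.98% and 1189 genes. Genes of any biotype gave 24.0% and a density ratio of 1.02. Keeping peaks with −log10 q of at least 5, or a fold of at least 5, raised the median fold to 7.56 and to 6.93, as those floors do by construction. Recovered fragments, another unit, had a median of 12. AGATAA was present in 15.8% of windows when summits within 1 kb of the start were taken, against 23.7% for summits in the window. The density ratio could not be given when any overlap of the peak interval was used. No paired analysis was possible because the replicates were pooled in 1 list, and for the same reason no replicate could be left out. Few fragments per summit limit the folds: at the median of 12 the interval spans 6.20 to 21.0.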
